A study of Mus musculus with 95 samples.

Results

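The 9 genes described here encode regulators of plasminogen activation and of blood coagulation: the plasminogen activators Plau and Plat, the urokinase receptor Plaur, the protease inhibitor Serpine2, tissue factor (F3), coagulation factor VII (F7), the A subunit of factor XIII (F13a1), thrombomodulin (Thbd) and fibrinogen-like protein 2 (Fgl2). They were picked by symbol and make up 9 of the 25407 gene symbols in the deposited tables. Transcript levels came from RNA-Seq libraries of the sciatic nerve (SCN), of dorsal root ganglia (DRG) and of the glomeruli and cortex of the kidney, taken from 16-week-old male mice of the strain BKS.Cg-m +/+ Leprdb/J. The 4 groups were db/+, db/db, db/+ PIO and db/db PIO, where PIO stands for pioglitazone, an agonist of the nuclear receptor PPARG, given at 15 mg/kg for 11 weeks. The db/db mice carry the leptin receptor mutation on both chromosomes and serve as a model of type 2 diabetes, and the db/+ controls carry it on a single chromosome, so that every group holds the mutant allele. Each of the 16 combinations of tissue and group held 6 libraries, except DRG db/db with 5, which gives 95 libraries.

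Plasmin, which dissolves fibrin and also cleaves matrix proteins, is made from plasminogen by urokinase (Plau) and by tissue-type plasminogen activator (Plat). Urokinase is held at the cell surface by its receptor, and serpins such as Serpine2 (protease nexin 1) block the activators. Clotting starts when tissue factor binds factor VII, and factor XIII then crosslinks the fibrin that thrombin makes. Thrombomodulin, an endothelial receptor, turns thrombin towards the activation of protein C. Fgl2 exists as a membrane protein that cleaves prothrombin and as a secreted protein that acts on immune cells. In injured nerve, plasminogen activators are known for clearing fibrin and matrix during regeneration, and in the glomerulus for the turnover of fibrin and mesangial matrix.

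Values are FPKM, fragment counts scaled to transcript length and to the mapped fragments of the library, which can be set side by side between genes. An exact 0 was read as missing, since Actb was listed at 0 in 74, Eef1a1 in 46 and Gapdh in 34 of the 95 libraries, and a 0 for a gene was often found beside high values of the same gene in the other libraries of its group. Of the 855 values of the 9 genes, 389 were listed at 0. Each library held 7333 to 10432 genes above 0. The files give no counts, so the depth of each library is unknown. Defining markers of each tissue were present at high levels in the libraries that listed them, among them Mbp with a median of 10347 FPKM in 24 of 24 SCN libraries, Nefl with 3418 FPKM in 20 of 23 DRG libraries, Podxl with 2279 FPKM in 23 of 24 glomerular libraries and Slc34a1 with 1875 FPKM in 5 of 24 cortex libraries. Other defining markers were at 0 throughout, among them Mag and Egr2 in SCN, Trpv1 and Scn10a in DRG, Nphs1 and Wt1 in glomeruli and Lrp2 in cortex. Some libraries stood apart. The median deviation of the skeletal muscle markers, 6 of 8 of them with enough values in SCN, was at least 2 on the log2 scale in db/db libraries 1, 3 and 5 and db/db PIO libraries 1, 3 and 5 of SCN and in DRG db/db library 3, and the proximal tubule markers deviated by 3.07 in glomerular db/+ library 2. The FPKM values of cortex db/db library 6 summed to 601310, against 184748 to 314578 in the other cortex libraries.

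In the mm9 genome the genes lie apart from one another, except that Plat and F7 share chromosome 8. Plau spans 21655884 to 21662610 on chromosome 14, Plat 23868216 to 23893319 on chromosome 8, Plaur 25247519 to 25260892 on chromosome 7, F3 121426455 to 121437970 on chromosome 3, F7 13026034 to 13035809 on chromosome 8 and Fgl2 20878460 to 20884192 on chromosome 5, all on the forward strand. Serpine2 spans 79790772 to 79855271 on chromosome 1, F13a1 36959047 to 37142113 on chromosome 13 and Thbd 148230207 to 148233924 on chromosome 2, all on the reverse strand.

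RefSeq promoter windows (GRCm38.p6) were matched for 6 of the 9 genes, Plaur, Fgl2, F3, F7, F13a1 and Serpine2, and Plau, Plat and Thbd had no entry. The 250 bases before the start of Plaur and Fgl2 are printed because the results in SCN and in the kidney turn on these genes, and those of F3 because its window held the searched letters at 2 places. Capitals mark the letters TGANTCA (N for any base), the core of the binding sequence of AP-1 factors, which reads the same on both strands as a pattern. These letters occurred in 2217 of all 32851 promoter windows of this length (6.75%). They occurred in 3 of the 7 windows of the 6 genes matched, and F7, F13a1 and Serpine2 had no match. Nothing is read from this count, because the genes were chosen with their values known. A match is a description of the letters only, and no binding was measured here.
Plaur, chr7:24462233-24462482, forward strand, first capital at -69: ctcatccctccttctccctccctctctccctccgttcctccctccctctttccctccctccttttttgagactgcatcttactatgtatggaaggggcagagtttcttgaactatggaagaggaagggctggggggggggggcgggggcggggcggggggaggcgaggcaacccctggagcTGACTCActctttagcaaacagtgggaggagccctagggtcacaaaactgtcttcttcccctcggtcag
Fgl2, chr5:21372423-21372672, forward strand, first capital at -16: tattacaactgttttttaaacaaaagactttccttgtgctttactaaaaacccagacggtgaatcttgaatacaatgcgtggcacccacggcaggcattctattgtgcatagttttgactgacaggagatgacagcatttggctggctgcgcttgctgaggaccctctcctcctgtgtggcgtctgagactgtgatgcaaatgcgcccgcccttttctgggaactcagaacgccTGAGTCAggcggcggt
F3, chr3:121723287-121723536, forward strand, capitals from -146 and -135: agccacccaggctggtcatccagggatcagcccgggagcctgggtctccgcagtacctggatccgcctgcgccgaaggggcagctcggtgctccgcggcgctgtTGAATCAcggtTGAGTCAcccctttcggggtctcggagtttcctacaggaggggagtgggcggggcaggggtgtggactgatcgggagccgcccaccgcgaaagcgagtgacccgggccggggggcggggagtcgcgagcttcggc

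The levels of the 9 genes differed widely between tissues, as a description over the libraries with a value. Plat had the highest values of all, with 1395.53 to 1518.89 FPKM in the only 3 glomerular libraries that listed it (1 each of db/+, db/+ PIO and db/db PIO). Elsewhere Plat lay at 31.94 to 42.48 FPKM in 6 SCN libraries, 6.64 to 20.89 FPKM in 4 cortex libraries and 4.67 to 8.45 FPKM in 16 DRG libraries, and the last 2 ranges overlapped. Serpine2 had 103.14 and 63.3 FPKM in 2 SCN libraries, 27.83 to 41.43 FPKM in 13 DRG libraries and 3.55 to 11.04 FPKM in 22 cortex libraries, with no overlap between these ranges, and was listed at 0 in all 24 glomerular libraries. Plau was listed at 0 in all 24 cortex libraries, and its ranges in glomeruli (27.19 to 83.31 FPKM, 11 libraries) and SCN (4.03 to 40.07 FPKM, 14 libraries) overlapped, as did those of SCN and DRG (2.94 to 5.16 FPKM, 7 libraries). Thbd was lower in DRG (5.83 to 8.66 FPKM, 22 libraries) than in SCN (11.11 to 42.18 FPKM, 18 libraries) or glomeruli (19.05 to 52.9 FPKM, 22 libraries), while DRG and cortex (3.86 to 12.15 FPKM, 22 libraries) overlapped.

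F13a1 ranged from 6.45 to 22.1 FPKM in 10 SCN libraries to 0.86 to 2.34 FPKM in 18 DRG libraries, 0.09 to 1.09 FPKM in 24 glomerular libraries and 0.03 to 0.26 FPKM in 24 cortex libraries, and each neighbouring pair after SCN overlapped. Fgl2 lay at 32.84 to 95.77 FPKM in 9 SCN libraries, 10.01 to 42.38 FPKM in 18 glomerular libraries, 1.76 to 6.07 FPKM in 21 DRG libraries and 0.55 to 2.43 FPKM in 24 cortex libraries, so that glomeruli and DRG did not overlap and the neighbours above and below them did. F3 was at 21.67 to 58.51 FPKM in 13 SCN libraries and 23.03 to 46.41 FPKM in 13 glomerular libraries, above DRG (5.25 to 12.93 FPKM, 17 libraries) in every library with a value, and cortex (4.52 to 19.49 FPKM, 7 libraries) overlapped with DRG only. Plaur had values in 19 SCN libraries (0.79 to 10.28 FPKM) and 14 cortex libraries (1.72 to 6.69 FPKM), and in only 2 libraries each of DRG (5.92 and 6.74 FPKM) and glomeruli (24.44 and 22.2 FPKM). F7 stayed at or below 0.16 FPKM in every library of DRG, glomeruli and cortex.

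**Figure D1:**
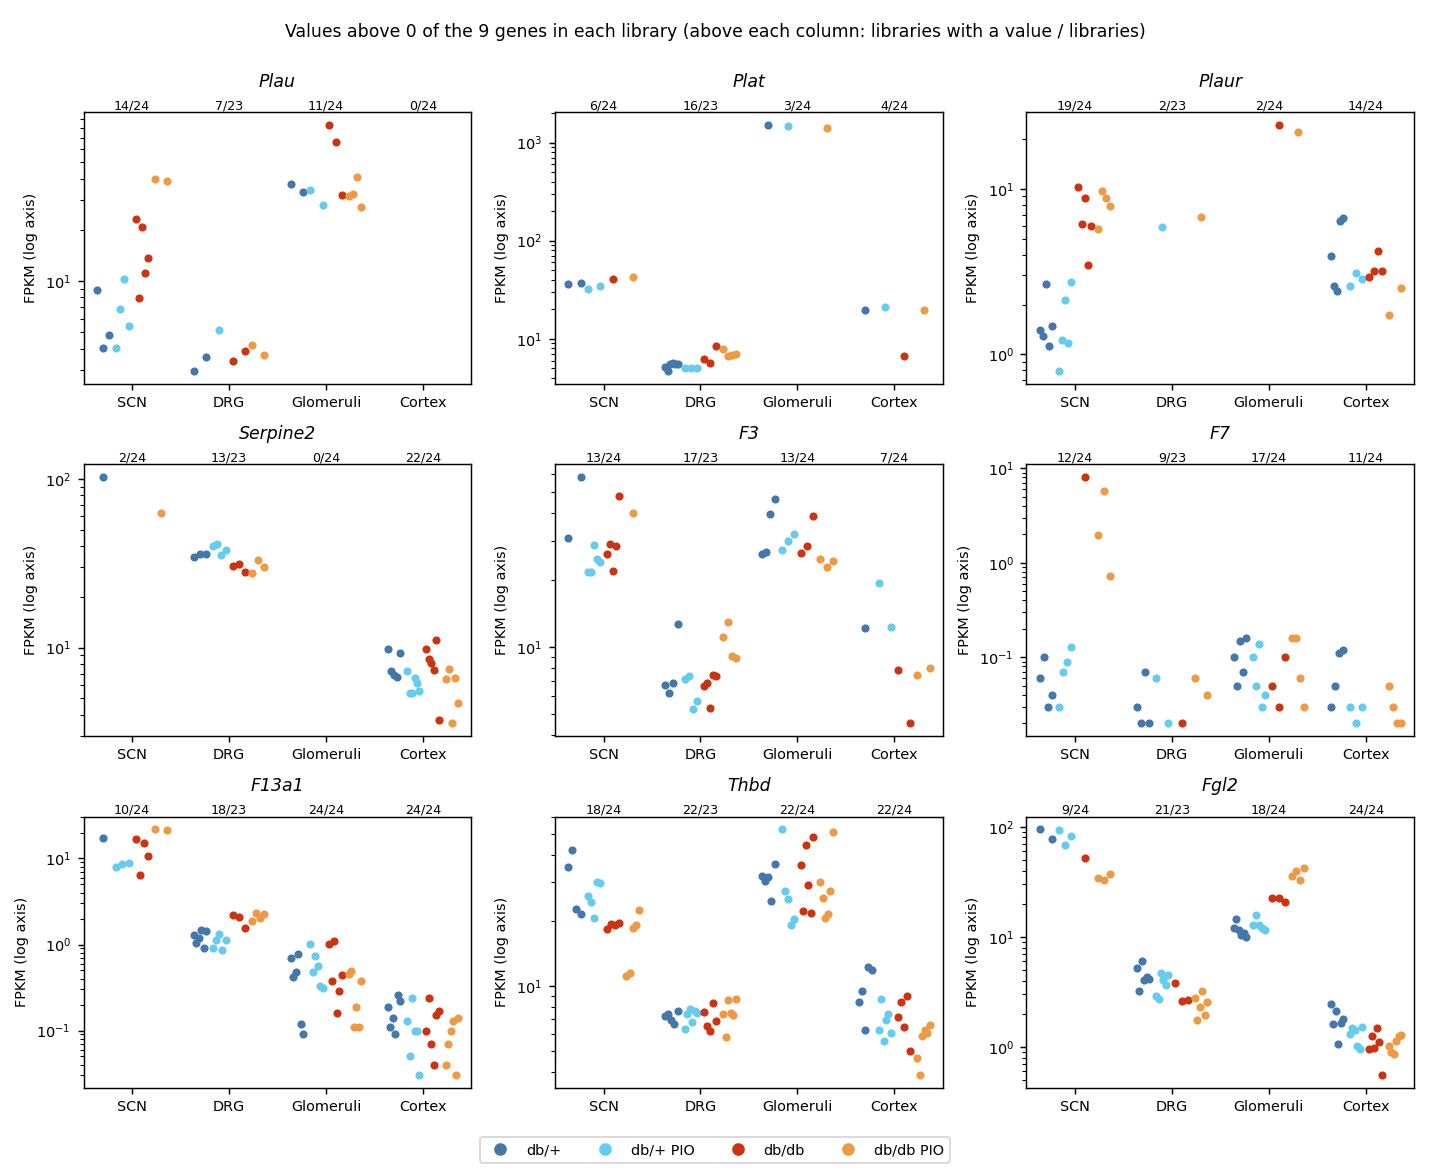
FPKM (log axis) of the 9 genes in each library with a value above 0, by tissue, with the 4 groups in colour and the number of libraries with a value above each column. The glomerular values of Plat stand above 1000 FPKM, and F7 reaches 0.72 FPKM or more in 4 libraries, all of diabetic SCN.

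Diabetes was examined first, as db/db against db/+. In SCN, the urokinase receptor and urokinase itself rose. Plaur was at 1.41, 1.29, 2.65, 1.12 and 1.49 FPKM in 5 db/+ libraries and at 10.28, 6.1, 8.79, 3.48 and 5.94 FPKM in 5 db/db libraries, and each group had 1 library listed at 0. Every db/db value lay above every db/+ value. The means were 1.59 ± 0.608 (SD, n = 5) and 6.92 ± 2.66 (SD, n = 5) FPKM, and the difference was 1.57 on the log2(FPKM + 1) scale (SE 0.236, limma, adjusted p = 0.000274). The scale adds 1 FPKM to every value before the logarithm and so understates the change of low genes. Of all genes tested in this comparison, 14.9% passed an adjusted p of 0.05. Of the 9 genes, 3 could be tested in SCN (Plau, Plaur and Thbd) and 2 passed, both higher, a count from which nothing is read because the genes were chosen with their values known. With each 0 entered as a value in place of missing, none of the calls of the 9 genes given here passed.

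Plau was at 8.81, 4.04 and 4.79 FPKM in 3 db/+ libraries of SCN and at 23.32, 7.92, 20.87, 11.14 and 13.73 FPKM in 5 db/db libraries. The groups overlapped by a single pair of libraries, since db/db library 3 lay below db/+ library 2. The difference was 1.22 on the log2 scale (SE 0.334, limma, adjusted p = 0.0285). This call was close to the threshold, with adjusted p = 0.0611 without db/db library 1, 0.0568 without db/db library 4, 0.0511 with the replicate number as a block and 0.0548 with only these groups in the fit.

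The 3 db/db libraries of SCN not high in skeletal muscle markers (2, 4 and 6) had 6.1, 8.79 and 5.94 FPKM of Plaur, and without the muscle-high libraries of SCN the difference was 1.62 (adjusted p = 0.00129). For Plau, only 2 db/db values (20.87 and 13.73 FPKM) remained, too few for a test. The macrophage markers (8 of 13 with enough values in SCN, with Cd68 at 0 in every library) had median deviations of -0.17 to 0.46 in db/+. In db/db they were at -0.24 to 0.45, so that these ranges nearly coincided. Several of these markers had few values, with Csf1r, Lyz2 and Tyrobp listed above 0 in 12 of 24 libraries and Cd163 in 11. No statement on macrophage content is read from this list. The mast cell markers (7 of 8 with enough values, none at 0 throughout) were at 0.03 to 0.71 in db/+ and lower, at -1.26 to -0.01, in db/db, without overlap, and their part in the SCN differences was not tested. In such bulk samples, more cells of a type and more RNA per cell cannot be told apart.

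Under pioglitazone, SCN showed the same direction for the receptor. Plaur was at 0.79, 1.23, 2.12, 1.17 and 2.75 FPKM in db/+ PIO and at 5.73, 9.73, 8.79 and 7.89 FPKM in db/db PIO, again with no overlap, and the difference was 1.82 (SE 0.251, limma, adjusted p = 2.86e-05). Of these db/db PIO values, 8.79 FPKM (library 4) came from a library not high in muscle markers. Plau was at 40.07 and 38.66 FPKM in the only 2 db/db PIO libraries with a value, above the 4.03 to 10.3 FPKM of 4 db/+ PIO libraries and above every db/db library, but 2 values were too few for a test, and both of these libraries (3 and 5) were high in skeletal muscle markers. Between db/db PIO and db/db, Plaur differed by 0.24 (95% CI -0.29 to 0.77, adjusted p = 0.592). Within that interval, no difference was shown for Plaur between treated and untreated diabetic nerve. Macrophage markers were at 0.33 to 0.86 in db/db PIO and -0.86 to -0.02 in db/+ PIO, ranges that did not overlap, and their part in the difference under pioglitazone was not tested.

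F7, which the liver secretes into blood, had an unusual pattern in SCN. It was at 0.06, 0.1, 0.03 and 0.04 FPKM in 4 db/+ libraries and 0.03, 0.07, 0.09 and 0.13 FPKM in 4 db/+ PIO libraries. The single db/db library with a value (1) had 8.13 FPKM, and 3 db/db PIO libraries (1, 3 and 6) had 1.98, 5.72 and 0.72 FPKM. All 4 diabetic values thus lay above the 8 non-diabetic values, and 5 of 6 db/db and 3 of 6 db/db PIO libraries were listed at 0. Of these 4 libraries, db/db 1 and db/db PIO 1 and 3 were high in skeletal muscle markers and db/db PIO 6, at 0.72 FPKM, was not. F7 did not reach the filter on low values (1 FPKM in at least 5 libraries). In a fit with no filter the difference between db/db PIO and db/+ PIO was 1.59 (SE 0.341, limma). That fit left out the libraries listed at 0, which at low levels cannot be told apart from a true absence, so the difference is a description only.

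The next gene on the same strand, F10 (coagulation factor X), begins 1498 bases after the end of F7 and was looked at after its values were seen. It was at 0.03, 0.11 and 0.02 FPKM in db/+ and 1.29, 0.61, 0.42 and 0.4 FPKM in db/db libraries of SCN, and at 0.03 to 0.08 FPKM in db/+ PIO and 0.39, 0.89 and 0.48 FPKM in db/db PIO. All diabetic values again lay above all non-diabetic ones, and 3 of these 7 (0.61, 0.89 and 0.48 FPKM) came from libraries not high in muscle markers. F10 was listed at 0 in db/db libraries 4 and 6 and db/db PIO libraries 3, 4 and 5. It was also at 0 in db/+ libraries 2, 5 and 6 and db/+ PIO libraries 4 and 6. The separation thus concerns only the libraries with a value. With no filter, F10 differed by 0.64 between db/db and db/+ over the libraries with a value (SE 0.149, limma). This is a description only, since F10 was picked after its values were seen. At such low levels a 0 cannot be told apart from a true absence.

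**Figure D2:**
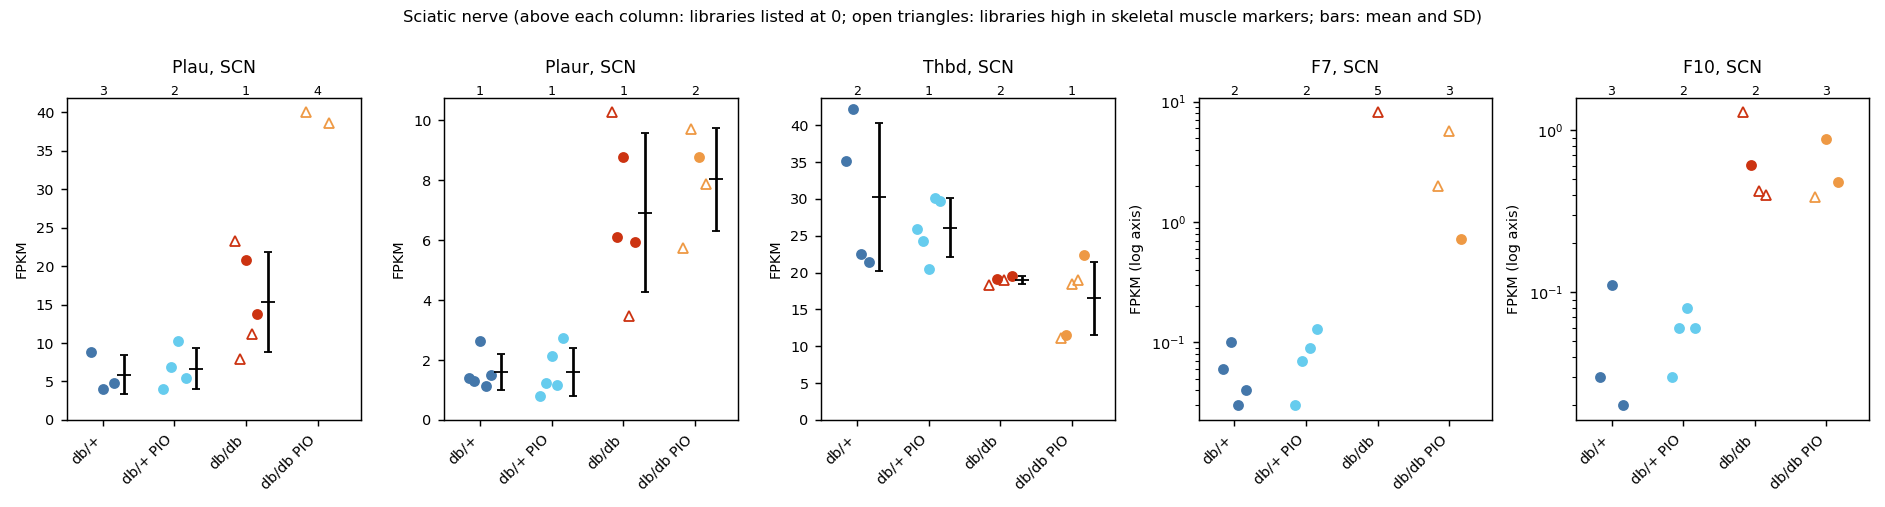
FPKM of Plau, Plaur and Thbd (linear axes from 0) and of F7 and F10 (log axes) in each SCN library by group, with open triangles for libraries high in skeletal muscle markers, bars for mean and SD and the number of libraries listed at 0 above each column. The db/db and db/db PIO values of Plaur, 3.48 FPKM and above, lie over all non-diabetic values, which reach 2.75 FPKM.

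Thbd and Fgl2 were lower in diabetic SCN. Thbd was at 35.11, 42.18, 22.51 and 21.48 FPKM in db/+ and at 18.36, 19.17, 18.99 and 19.57 FPKM in db/db. The groups did not overlap, but the difference of -0.59 (SE 0.219) missed the threshold (limma, adjusted p = 0.0776). It passed without db/+ library 5 (adjusted p = 0.0492), without db/+ library 6 (0.0367) and with median-of-ratios rescaling (0.0355). Under pioglitazone, Thbd was at 20.51 to 30.07 FPKM in 5 db/+ PIO libraries and at 11.11, 11.51, 18.4, 19.05 and 22.38 FPKM in db/db PIO. Here it fell by 0.67 on the log2 scale (SE 0.195, limma, adjusted p = 0.0143), although with the replicate number as a block the adjusted p was 0.0587. Libraries high in muscle markers gave 3 of these db/db PIO values (11.11, 18.4 and 19.05 FPKM) and, among the untreated db/db values, 18.36 and 18.99 FPKM. Without them only 2 values remained in each diabetic group, too few for a test. Too few endothelial markers had values in SCN for a level of that list, with Robo4 and Eng at 0 in every library.

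Fgl2 was at 95.77 and 77 FPKM in 2 db/+ libraries and at 51.72 FPKM in the only db/db library with a value, too few for a test. With pioglitazone, 3 db/+ PIO libraries had 94.48, 68.4 and 81.75 FPKM and 3 db/db PIO libraries had 34.04, 32.84 and 37.28 FPKM. The groups were far apart, and Fgl2 fell by 1.20 on the log2 scale (SE 0.136, limma, adjusted p = 0.000302). Of these db/db PIO libraries, 1 and 5 were high in muscle markers and 6 was not. In this comparison 33.8% of all genes passed, and of the 9 genes 3 were tested and passed, Plaur higher and Thbd and Fgl2 lower. From this count, too, nothing is read.

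Serpine2, Plat, F3 and F13a1 had too few values in SCN for the diabetes comparison. F3 was at 21.99 to 47.91 FPKM in 5 db/db libraries against 30.93 and 58.51 FPKM in 2 db/+ libraries, overlapping. F13a1 was at 16.91, 6.45, 15.18 and 10.72 FPKM in db/db against 17.51 FPKM in a single db/+ library, and at 22.1 and 21.49 FPKM in 2 db/db PIO libraries against 8.06, 8.61 and 8.79 FPKM in db/+ PIO. Plat stayed between 31.94 and 42.48 FPKM in the 6 libraries that listed it, which came from all 4 groups. With pioglitazone in db/+ mice, none of the 3 genes tested in SCN (Plau, Plaur and Thbd) passed, in a comparison where 0.0778% of all genes passed and 659 genes had an unadjusted p under 0.05.

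In DRG, the fibrin-crosslinking subunit rose with diabetes. F13a1 was at 1.28, 1.05, 1.18, 1.46, 0.9 and 1.44 FPKM in db/+ and at 2.21, 2.08 and 1.55 FPKM in 3 db/db libraries, with no overlap. The difference was 0.41 (SE 0.0991, limma, adjusted p = 0.0285), and with each 0 entered as a value it was -0.21 and did not pass. The call also ended without db/+ library 2 (adjusted p = 0.0521), without db/+ library 3 (0.0520) and with the replicate number as a block (0.0770), and db/db library 3, at 2.21 FPKM, was the one high in muscle markers, without which only 2 values remained. Macrophage markers (11 of 13 with enough values, none at 0 throughout) deviated by -0.169 to -0.033 in db/+ and by -0.025 to 0.385 in db/db ganglia, higher without overlap, and their part in the difference was not tested. Among the 6 of 9 genes tested in DRG only F13a1 passed, where 4.13% of all genes did.

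The other genes tested in DRG missed the threshold. Fgl2 was at 5.17, 3.22, 6.07, 4.08, 4.31 and 4.12 FPKM in db/+ and 3.8, 2.59 and 2.65 FPKM in 3 db/db libraries. These groups overlapped, and the difference was -0.45 (SE 0.165, limma, adjusted p = 0.125). Plat was at 4.67 to 5.65 FPKM in 6 db/+ libraries and 6.19, 5.71 and 8.45 FPKM in db/db, a separation short of the threshold (difference 0.28, SE 0.0907, limma, adjusted p = 0.0933). Serpine2 was at 34.58, 35.93 and 35.94 FPKM in db/+ and 30.29, 31.16 and 28.24 FPKM in db/db, again without overlap and short of the threshold (-0.24, SE 0.0771, limma, adjusted p = 0.104), which it passed with only these groups in the fit (0.0298). For both Plat and Serpine2, a db/db value came from library 3, the one high in muscle markers. Without that library too few values of either gene were left for a test. Thbd hardly varied, between 6.66 and 7.67 FPKM in db/+ and 6.17 and 8.34 FPKM in db/db, and its difference had a 95% CI of -0.20 to 0.15.

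Between the pioglitazone-treated groups of DRG, 5 of the 6 genes tested passed, where 8.64% of all genes did. Nothing is read from this count, because the genes were chosen with their values known. F13a1 was at 0.9, 1.14, 1.32, 0.86 and 1.12 FPKM in db/+ PIO and 1.89, 2.34, 2.03 and 2.29 FPKM in db/db PIO, a rise of 0.60 (SE 0.0940, limma, adjusted p = 0.000975). Plat rose from 5.02, 5.03 and 5.01 FPKM to 7.86, 6.66, 6.91 and 6.99 FPKM (difference 0.43, SE 0.0980, limma, adjusted p = 0.0151). Both genes were thus higher in the diabetic ganglia with no overlap. Serpine2 fell, from 40.34, 41.43, 35.41 and 37.83 FPKM to 27.83, 33.03 and 30.23 FPKM, and the difference was -0.34 (SE 0.0721, limma, adjusted p = 0.0133), which ended with the block (0.180), with only these groups in the fit (0.0875) and with quantile normalization (0.0699).

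F3 was at 7.15, 7.43, 5.25 and 5.73 FPKM in db/+ PIO and 11.09, 12.93, 9.14 and 8.95 FPKM in db/db PIO of DRG. Every treated diabetic value was higher, and the difference was 0.64 (SE 0.177, limma, adjusted p = 0.0341). It missed the threshold without db/+ PIO library 3 (0.0732) or 6 (0.0747), without db/db PIO library 1 (0.0705) or 2 (0.0802) and with no filter on low values (0.0588). Set against untreated db/db ganglia, which had 6.65, 6.85, 5.29, 7.5 and 7.36 FPKM, the same db/db PIO libraries were also higher without overlap, but over all genes tested the difference of 0.57 (SE 0.168) did not pass (limma, adjusted p = 0.292). No gene passed that comparison in DRG by limma (0.0%), and 325 genes had an unadjusted p under 0.05. The untreated db/+ ganglia held F3 at 6.75, 6.18 and 6.89 FPKM and, in library 5, at 12.68 FPKM.

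Fgl2 fell as well, from 2.9, 2.73, 4.68, 4.05, 3.62 and 4.5 FPKM in db/+ PIO to 2.81, 1.76, 2.31, 3.25, 1.94 and 2.57 FPKM in db/db PIO of DRG, with overlap (difference -0.46, SE 0.134, limma, adjusted p = 0.0361). The adjusted p lay between 0.0513 and 0.0747 without any one of db/+ PIO libraries 3, 4 and 6 or db/db PIO libraries 2, 3, 5 and 6, and was 0.0604 with no filter and 0.0778 with only these groups. Macrophage markers deviated by -0.37 to 0.06 in db/+ PIO and -0.01 to 0.32 in db/db PIO of DRG, so that the 2 ranges overlapped little. Adipocyte markers (8 of 8 with enough values) were at -0.29 to 0.62 in db/+ PIO and 0.03 to 1.05 in db/db PIO, overlapping. Their medians were -0.20 and 0.42, beside -0.14 in untreated db/db ganglia. Adipoq, Plin1 and Cfd among them had medians below 1 FPKM. The part of either list in these DRG differences was not tested. With pioglitazone in db/+ mice, none of the 6 genes tested in DRG passed, where no gene of the table passed by limma (0.0%) and 403 had an unadjusted p under 0.05.

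**Figure D3:**
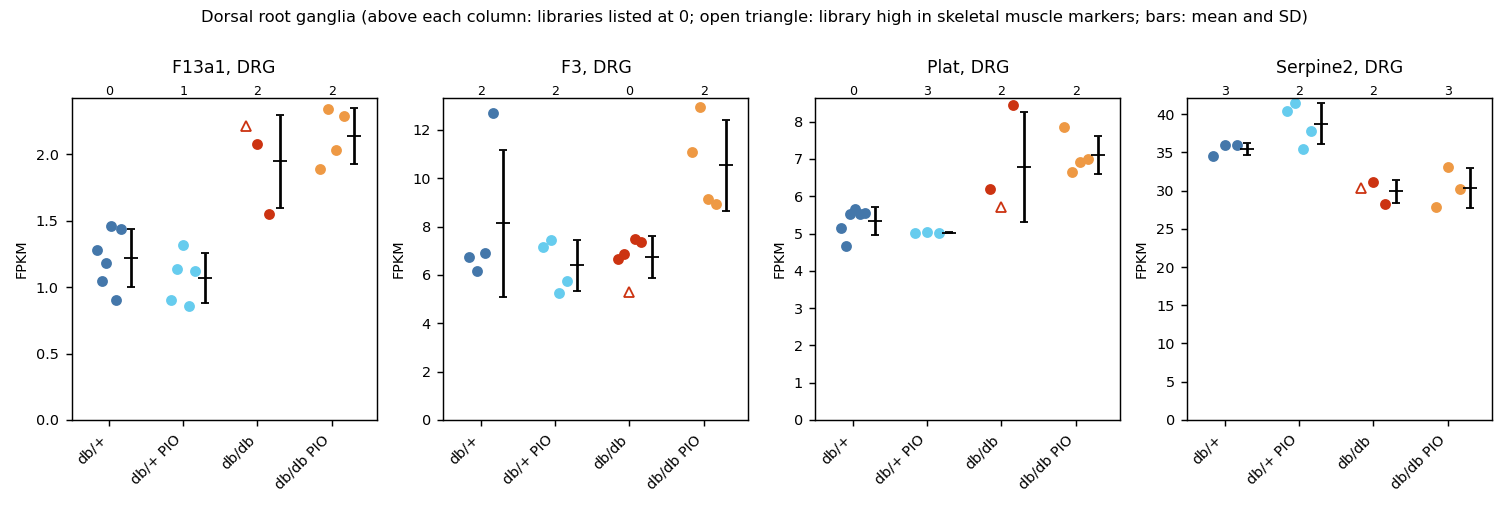
FPKM (axes from 0) of F13a1, F3, Plat and Serpine2 in each DRG library by group, with bars for mean and SD, an open triangle for the db/db library high in skeletal muscle markers and the number of libraries listed at 0 above each column. F3 reaches 8.95 FPKM and more in all db/db PIO libraries with a value, and in the other groups only in db/+ library 5 at 12.68 FPKM.

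Among pioglitazone-treated mice, Fgl2 was lower in db/db than in db/+ by more in SCN than in DRG, by a fit of both tissues. The difference of the differences was -0.74 (SE 0.224, limma, adjusted p = 0.0218), and with a pseudocount of 0.1 it was -0.62 and did not pass (0.129). For Thbd it was -0.71 (SE 0.202, limma, adjusted p = 0.0111), with SCN lower in db/db PIO and DRG at 5.83 to 8.66 FPKM in db/db PIO against 6.34 to 7.81 FPKM in db/+ PIO. This cross-tissue comparison under pioglitazone was added after the data were seen, and 17.9% of all genes passed it. Libraries of different tissues entered as independent, because the labels do not tie them to a mouse.

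In glomeruli, Fgl2 went the other way. It was at 11.95, 14.55, 11.63, 10.43, 10.82 and 10.01 FPKM in db/+ and at 22.68, 22.74 and 20.94 FPKM in 3 db/db libraries, with 3 listed at 0. No db/db value was below 20 FPKM and no db/+ value above 15 FPKM. The means were 11.6 ± 1.63 (SD, n = 6) and 22.1 ± 1.02 (SD, n = 3) FPKM, and Fgl2 rose by 0.89 (SE 0.109, limma, adjusted p = 2.91e-05). The direction rests on reading a 0 as missing, since with each 0 entered as a value the difference was -1.38 and did not pass. In this comparison 25.4% of all genes passed, and Fgl2 was the only gene of the 3 tested that did.

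Pioglitazone raised Fgl2 further in diabetic glomeruli. The db/db PIO libraries had 36.09, 40, 32.82 and 42.38 FPKM, all above the 3 db/db values, with a mean of 37.8 ± 4.22 (SD, n = 4) FPKM. The difference from db/db was 0.74 (SE 0.117, limma, adjusted p = 0.000335), where 23.1% of all genes passed, and that from db/+ PIO, with 12.85, 15.73, 12.78, 11.94 and 11.64 FPKM, was 1.47 (SE 0.103, limma, adjusted p = 1.74e-07), where 8.41% did. In db/+ mice pioglitazone made a difference of 0.16 (95% CI -0.04 to 0.35, adjusted p = 0.997), where no gene passed by limma (0.0%) and 118 genes had an unadjusted p under 0.05. The interaction, the change by pioglitazone in db/db less that in db/+, was 0.59 (SE 0.150, limma, adjusted p = 0.0203), in a comparison that 9.71% of genes passed.

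Markers of other cells moved in the same libraries. The collecting duct markers (8 of 10 with enough values, none at 0 throughout) deviated by 1.10 to 2.25 in db/db glomeruli but by -0.63 to 1.03 after pioglitazone, and the macrophage markers (11 of 13, none at 0 throughout) by 0.21 to 1.45 before and -1.45 to -0.05 after it. Fibroblast markers (6 of 9, 1 at 0 throughout) were at 0.15 to 1.33 in untreated diabetic glomeruli and -0.22 to 0.13 in treated ones, also without overlap. Proximal tubule markers (9 of 11, none at 0 throughout) had a median of 0.97 in db/db, beside -0.03 in db/+ and -0.11 in treated db/db libraries. Fgl2 was highest in the db/db PIO glomeruli, where the medians of these 4 lists were lower than in db/db. From db/+ to db/db, where Fgl2 also rose, the medians went from 0.07 to 1.82 for collecting duct markers. They went from 0.10 to 0.54 for macrophage and from 0.01 to 0.82 for fibroblast markers. In each of these lists the db/+ and db/db ranges overlapped. The highest db/+ deviations were 1.20 for collecting duct, 0.92 for macrophage and 1.26 for fibroblast markers. The part of these cells in the Fgl2 differences was not tested. Too few endothelial markers had values in glomeruli for a level of that list.

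In kidney cortex, Fgl2 was low and fell. It was at 2.43, 1.6, 2.1, 1.07, 1.65 and 1.78 FPKM in db/+ and at 0.96, 1.25, 0.98, 1.48, 1.11 and 0.55 FPKM in db/db, overlapping, with a difference of -0.43 (SE 0.115, limma, adjusted p = 0.0178). This was the only call among the 4 genes tested, where 10.3% of all genes passed, and with only these groups in the fit the adjusted p was 0.0963. The lowest value, 0.55 FPKM, came from db/db library 6 with its high FPKM sum, and without it the difference was -0.35 (adjusted p = 0.0244). Mast cell markers (4 of 8 with enough values) deviated by -0.49 to -0.09 in db/+ and 0.01 to 0.34 in db/db cortex, without overlap. These 4 were Kit and Hdc (medians 2.17 and 2.96 FPKM) and Cpa3 and Ms4a2 (0.06 and 0.2 FPKM). The mast cell proteases Mcpt4, Cma1 and Tpsb2 had medians of only 0.05, 0.09 and 0.075 FPKM in cortex. No change in mast cells is read from this list. Macrophage markers (10 of 13) had medians of 0.44 in db/+ and -0.07 in db/db and collecting duct markers (5 of 10) of -0.13 and 0.22, both with overlapping ranges. None of these markers was at 0 throughout, and their part in the difference was not tested. After pioglitazone db/db PIO cortex had 0.86 to 1.27 FPKM, a difference of 0.02 from db/db (95% CI -0.22 to 0.26). The effect of diabetes on Fgl2 differed between glomeruli and cortex by 1.32 (SE 0.168, limma, adjusted p = 1.35e-06, 11.2% of all genes passing), and the effect of pioglitazone in db/db by 0.72 (SE 0.177, limma, adjusted p = 0.00542, 10.3% passing), though the latter did not pass with a pseudocount of 0.1 (0.0841). Between SCN and glomeruli the difference between db/db PIO and db/+ PIO itself differed by -2.67 (SE 0.170, limma, adjusted p = 4.13e-10, 16.6% passing), in a comparison added after the data were seen.

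**Figure D4:**
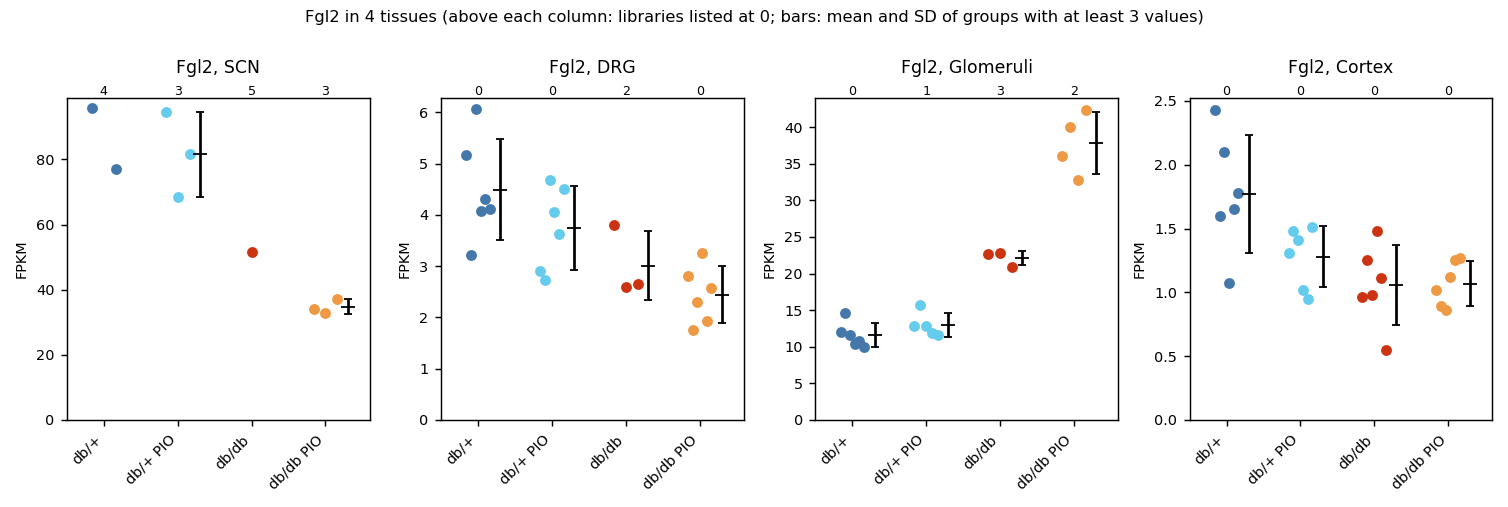
FPKM of Fgl2 (axes from 0, a different scale in each panel) in each library of the 4 tissues by group, with bars for mean and SD of groups with at least 3 values and the number of libraries listed at 0 above each column. Treated diabetic libraries are lowest in SCN, at 32.84 to 37.28 FPKM, and highest in glomeruli, at 32.82 to 42.38 FPKM.

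The remaining genes did not pass in the kidney. Plau in glomeruli was at 83.31, 66.13 and 32.1 FPKM in db/db and at 31.48, 32.58, 41.02 and 27.19 FPKM in db/db PIO, a difference of -0.76 (SE 0.274, limma, adjusted p = 0.0740), and the 4 libraries of the non-diabetic groups with a value held 27.99 to 37.34 FPKM. Values of 66.13 and 83.31 FPKM, in db/db libraries 4 and 2, were above all others. F3 ranged over 26.2 to 46.41 FPKM in control, 26.4 to 38.95 FPKM in untreated diabetic and 23.03 to 24.81 FPKM in treated diabetic glomeruli, with a difference of -0.35 between the last 2 (95% CI -0.79 to 0.10). Thbd varied widely within each glomerular group, from 21.57 to 48.31 FPKM in db/db, and its diabetes difference of 0.05 had a 95% CI of -0.48 to 0.59. In cortex, Serpine2 ranged over 3.7 to 11.04 FPKM without and 3.55 to 7.42 FPKM with pioglitazone in diabetic mice (difference -0.40, SE 0.192, limma, adjusted p = 0.216), and without db/db library 6, the lowest at 3.7 FPKM and the one with the high FPKM sum, the difference was -0.58 and passed (0.0256). Thbd in cortex was at 6.28 to 12.15 FPKM in db/+ and 4.99 to 8.93 FPKM in db/db, short of the threshold (-0.37, SE 0.168, limma, adjusted p = 0.200), and Plaur at 2.4 to 6.69 and 2.93 to 4.19 FPKM (-0.23, 95% CI -0.73 to 0.27).

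**Figure D5:**
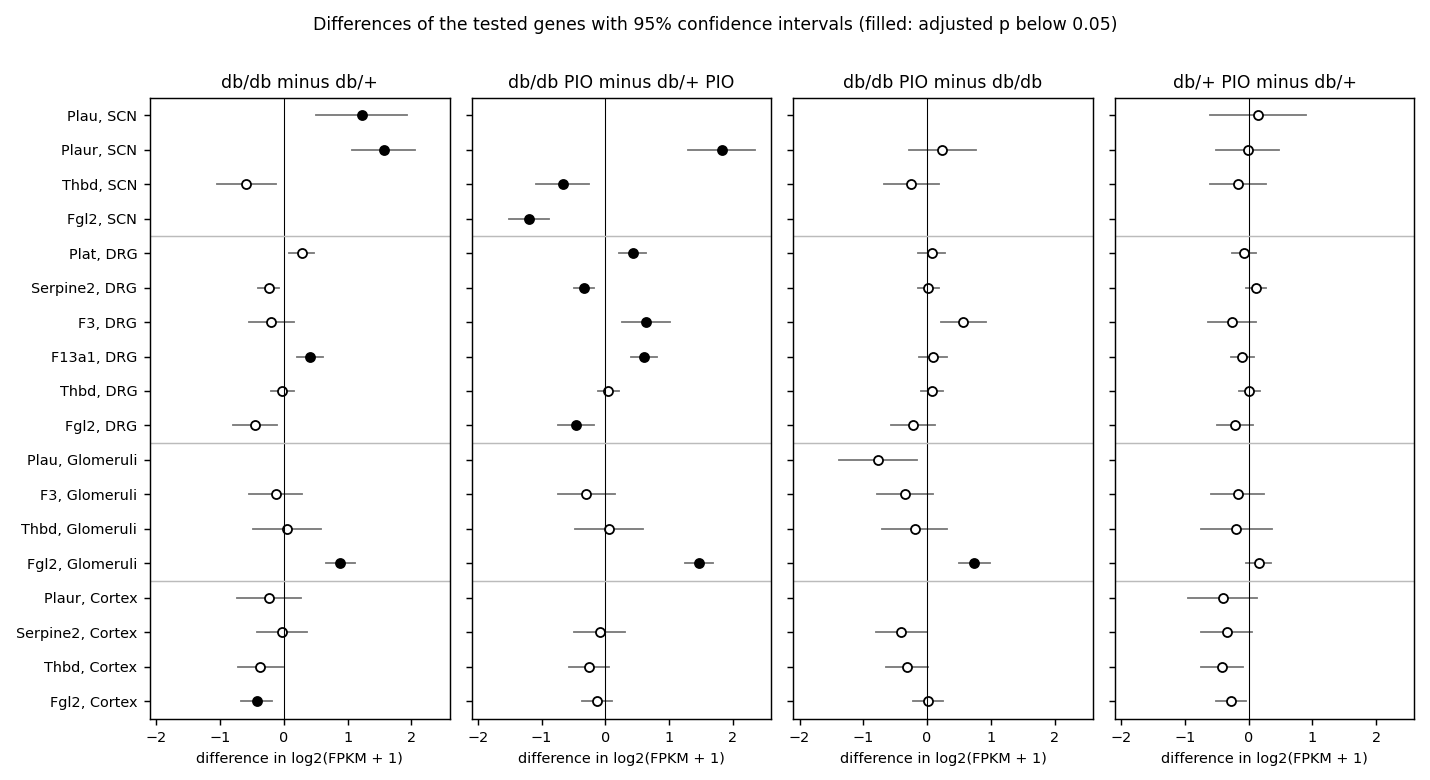
Differences on the log2(FPKM + 1) scale with 95% confidence intervals for each gene and tissue with enough values, in 4 comparisons, with filled points where the adjusted p over all genes was below 0.05. Filled points stand to the right for Plau and Plaur in SCN, Plat, F3 and F13a1 in DRG and Fgl2 in glomeruli, and to the left for Thbd and Fgl2 in SCN, Serpine2 and Fgl2 in DRG and Fgl2 in cortex.

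Other genes of the pathway were taken from 5 lists (fibrinolysis, coagulation factors, anticoagulants, protease-activated receptors and platelet genes) that hold 53 symbols, 51 of them in the files and none of the 9 genes. Few could be tested. With diabetes, 3 of 9 passed in SCN (2 higher, 1 lower, beside 14.9% of all genes), 0 of 11 in DRG (4.13%, where 799 genes of the whole table had an unadjusted p under 0.05 and 158 passed), 7 of 11 in glomeruli, where 5 were higher and 2 lower (25.4%), and a single lower gene of 10 in cortex (10.3%). The median difference was -0.05 in SCN beside 0.02 over all genes tested, and 0.85 in glomeruli beside 0.04. With pioglitazone in db/db mice, 2 of 9 passed in SCN (1 higher, 1 lower, beside 10.1% of all genes), and 0 of 11 in DRG by limma (0.0%, with 325 genes of the table at an unadjusted p under 0.05). In glomeruli 6 of 11 were lower, beside 23.1% of all genes (median -0.50 beside -0.04), while in cortex 1 of 9 was higher (3.24%).

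In glomeruli of db/db mice, plasma kallikrein (Klkb1) rose by 0.85 and fell by 0.93 with pioglitazone, the platelet chemokine Ppbp rose by 0.96 and fell by 0.69, and von Willebrand factor (Vwf), carried by endothelium and platelets, lay at 0.32 to 1.18 FPKM in control, 1.43 to 2.97 FPKM in untreated diabetic and 0.33 to 1.95 FPKM in treated diabetic glomeruli, a rise of 0.88 and a fall by 0.50. The protease-activated receptor F2rl1 rose by 1.29 with diabetes and fell by 1.52 with pioglitazone. Pioglitazone also lowered the platelet factor Pf4 (fell by 0.95) and the plasmin inhibitor Serpinf2 (fell by 1.06) in diabetic glomeruli, and diabetes lowered Lman1, which ferries factors V and VIII out of the endoplasmic reticulum, by 0.33 (difference -0.33) and Vkorc1, which recycles vitamin K, by 0.35 (difference -0.35). Lman1 and Vkorc1 fell with diabetes, where the medians of the marker lists given above for glomeruli rose. The other differences named here had the same direction as those medians. The part of those cells in any of these differences was not tested. Too few untreated diabetic glomeruli listed the thrombin receptor F2r for a test (337.37 and 187.43 FPKM). In treated diabetic glomeruli F2r was at 299.84, 385.92 and 306.91 FPKM, against 127.56 to 204.36 FPKM in db/+ PIO, without overlap.

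In SCN, the thrombin receptor F2r rose with diabetes from 0.73 to 1.75 FPKM in 6 db/+ libraries to 1.07 to 3.96 FPKM in 6 db/db libraries (0.47, SE 0.151, limma, adjusted p = 0.0402) and further with pioglitazone to 3.27 to 4.39 FPKM (0.63, SE 0.151, limma, adjusted p = 0.00997). The 6 untreated diabetic libraries held heparin cofactor II (Serpind1) at 52.4 to 68.29 FPKM and the 6 treated ones at 27.45 to 40.33 FPKM, with no overlap, so that it fell by 0.70 (SE 0.105, limma, adjusted p = 0.000417). Pf4 fell with diabetes in SCN by 0.61 (difference -0.61, limma, adjusted p = 0.0312) but was higher by 0.61 in db/db PIO than in db/+ PIO (adjusted p = 0.0189), with means of 65.9 FPKM in db/+, 42.9 in db/db, 39.2 in db/+ PIO and 59.9 in db/db PIO. In cortex Pf4 fell with diabetes by 0.78 (difference -0.78), and fibrinogen alpha (Fga) rose by 0.95 with pioglitazone in db/db cortex.

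Some comparisons of the 9 genes gave no call beyond those above. With pioglitazone in db/db SCN, 0 of 2 genes tested passed (Plaur and Thbd), beside 10.1% of all genes and 999 with an unadjusted p under 0.05, and in the interaction 0 of the same 2, beside 6.23%. In cortex, none of Fgl2, Serpine2 and Thbd passed with pioglitazone in db/db (3.24% of all genes), between the treated groups (19.7%) or in the interaction (0.031%), and none of these and Plaur passed with pioglitazone in db/+ (0.025%). Thbd, at -0.57 (95% CI -1.02 to -0.11), was the only gene tested for a difference of the diabetes effect between SCN and DRG and did not pass (limma, adjusted p = 0.118, 6.31% of all genes), and with pioglitazone in db/db that difference was -0.32 (95% CI -0.76 to 0.11, 4.4% of all genes). Between glomeruli and cortex, the effect of diabetes under pioglitazone differed by 1.61 for Fgl2 (SE 0.163, limma, adjusted p = 3.52e-09), and not past the threshold for Thbd (0.31, 95% CI -0.30 to 0.92), where 7.28% of all genes passed.

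Over group means, the genes most like a member could be named for F13a1, Thbd and Fgl2, the only ones with at least 3 values in 12 or more of the 16 groups. As a description over points that share tissues and libraries, F13a1 was most like Itgbl1 (Pearson r = 0.994 over 12 groups), Pdgfrl (0.988 over 14) and LOC100503788 (0.986 over 13). Thbd was most like Calhm2 (0.988 over 16 groups), Nfatc2ip (0.980 over 14) and Armcx6 (0.979 over 12), and Fgl2 most like Kctd11 (0.992 over 12), Rnd3 (0.987 over 14) and Tgm4 (0.974 over 13).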

How the data were processed

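RNA libraries of SCN, DRG, glomeruli and cortex were made with a TruSeq mRNA kit and sequenced on an Illumina HiSeq. Reads were mapped by the authors with TopHat and Bowtie, and Cufflinks then gave the deposited FPKM, a single value per symbol and library written to 2 decimals. Cufflinks and mm9 also stand in the submitters' processing notes; their versions were not given in the sources used here. Cuffdiff, the test of the authors, needs aligned reads and was replaced.

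Differences were fitted to log2(FPKM + 1) with limma 3.58.1 (R 4.3.3). An exact 0 was missing, the 4 groups of a tissue shared 1 fit with 1 mean per group, and variances were moderated along an intensity trend. A gene entered when 5 or more libraries of the tissue reached 1 FPKM and both groups compared had 3 values. Adjusted p-values are Benjamini-Hochberg values over all genes tested, with a threshold of 0.05. Tissues were compared in a fit of their 8 groups. The script was tested on simulated data. Tables and figures were made in Python 3.11.15 with pandas 2.3.3.

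The 9 genes, the gene lists and the tests were chosen with earlier results of these data known, so their p-values are no independent evidence. Named were all 9 genes, list genes that passed with diabetes or with pioglitazone in db/db in some tissue, and the 3 genes most like each member. A list gene counted among those that passed is not reported here by name. F10, a list gene below the filter, was added after its values were seen. Alternatives were each 0 entered as a value, a pseudocount of 0.1, no filter, median-of-ratios and quantile scaling, only the compared groups, 5 values per group, a replicate block, each library left out and, added after the data were seen, the muscle-high libraries left out. The labels name biological replicates, and no pair of libraries held identical values.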

Additional observations from a re-analysis of the deposited data

Results flagged for a closer look

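In groups of 4 to 10 values, 5 of the 69.0 groups of the 9 genes held a library with a gap to its neighbours beyond the 95% critical value of Dixon's test, which chance alone reaches in about 1 group in 20. Plaur was at 2.65 FPKM in SCN db/+ library 3, with the other 4 values at 1.12 to 1.49 FPKM. F3 was at 47.91 FPKM in SCN db/db library 6 beside 21.99 to 29.2 FPKM, and at 12.68 FPKM in DRG db/+ library 5 beside 6.18 to 6.89 FPKM. Thbd was at 52.9 FPKM in glomerular db/+ PIO library 2 beside 19.05 to 27.26 FPKM, and at 51.2 FPKM in glomerular db/db PIO library 6 beside 20.6 to 30.15 FPKM.

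Other results stood out because an effect differed between groups or tissues by a test of the difference itself. In glomeruli, the change of Fgl2 with pioglitazone was larger in db/db than in db/+ mice by 0.59 on the log2 scale. Between glomeruli and cortex, Fgl2 differed by 1.32 in the diabetes effect, by 0.72 in the pioglitazone effect in db/db and by 1.61 in the diabetes effect under pioglitazone. Under pioglitazone, the diabetes effect in SCN less that in DRG was -0.74 for Fgl2 and -0.71 for Thbd, and in SCN less that in glomeruli -2.67 for Fgl2.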

How the results depend on the processing

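With each 0 entered as a value, no member passed in any comparison, and 0 members were called with diabetes in SCN, DRG, glomeruli and cortex, between db/db PIO and db/+ PIO in SCN, DRG and glomeruli, with pioglitazone in db/db and the interaction in glomeruli, and in the 5 cross-tissue comparisons with a call. In that setting the difference reversed for F13a1 with diabetes in DRG (-0.21), Plat (-0.90) and Serpine2 (0.37) with diabetes in DRG, F3 in DRG with pioglitazone in db/db (-0.60) and in the interaction (-0.42), Plau with pioglitazone in db/db glomeruli (0.46), Thbd with pioglitazone in db/+ cortex (0.14), and Fgl2 with diabetes in glomeruli (-1.38) and between glomeruli and cortex (-0.95). This setting reads as levels the zeros that also occur in Actb and Gapdh.

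With at least 5 values in each group fewer members could be tested: 1 was called with diabetes and 1 between treated groups in SCN, 0 and 1 in DRG, 1 between SCN and DRG under pioglitazone, and 0 in glomeruli and in the cross-tissue comparisons with glomeruli. With only the compared groups in the fit, 1 was called with diabetes in SCN, 2 in DRG and 0 in cortex, and 3 between treated groups in DRG. No filter on low values gave 3 there and 2 between SCN and glomeruli under pioglitazone, and a pseudocount of 0.1 gave 1 between SCN and DRG under pioglitazone and 0 for pioglitazone between glomeruli and cortex. Without the muscle-high libraries 1 was called with diabetes in SCN and 0 in DRG, with fewer members tested. Median-of-ratios rescaling left the 22 single calls on their side of the threshold.

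The replicate block left 1 member called with diabetes in SCN, 1 between treated groups in SCN and 0 with diabetes in DRG. The deviations of same-numbered libraries correlated by medians of -0.00 (SCN), 0.06 (DRG), 0.13 (glomeruli) and -0.00 (cortex), with lowest values of -0.27, -0.41, -0.36 and -0.38, so that no tissue had every pair above 0.1 and the numbers were not taken to pair the libraries.

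Leaving out each library in turn gave 1 to 2 members with diabetes and 2 to 3 between treated groups in SCN, 0 to 1 and 2 to 5 in DRG, 0 to 1 with diabetes, with pioglitazone in db/db and in the interaction in glomeruli, 0 to 1 with pioglitazone in db/db cortex, 0 to 1 with diabetes and with pioglitazone between glomeruli and cortex, 0 to 1 with diabetes between SCN and DRG, and under pioglitazone 1 to 2 between SCN and DRG and 0 to 2 between SCN and glomeruli. A count of 0 for Fgl2 in glomeruli came where fewer than 3 db/db values were left. Depth is unknown here, and the number of libraries with a value limits each comparison.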

Other observations

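The share of libraries listed at 0 went with the level of the gene, as a description. The means, differences and p-values given here rest only on the libraries with a value. They may be shifted where the zeros depend on the level, which was not tested. F13a1 was listed at 0 in 14 of 24 SCN libraries, where its other values had a median of 12.9 FPKM, in 5 of 23 DRG libraries (median 1.38 FPKM) and in none of the 24 glomerular or 24 cortex libraries (medians 0.43 and 0.105 FPKM). Fgl2 was listed at 0 in 15 of 24 SCN libraries (median 68.4 FPKM), 6 of 24 glomerular libraries (13.7 FPKM), 2 of 23 DRG libraries (3.25 FPKM) and none of 24 cortex libraries (1.25 FPKM). Plat was listed at 0 in 21 of 24 glomerular libraries, and the 3 others held 1395.53 FPKM or more. Within glomeruli, Fgl2 was listed at 0 in none of 6 db/+, 1 of 6 db/+ PIO, 3 of 6 db/db and 2 of 6 db/db PIO libraries. Thbd at a median of 28.3 FPKM was listed at 0 in only 2 of 24 glomerular libraries, so that the level alone did not order the zeros across genes.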
